A study of Mus musculus with 6 samples.

Results

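Complement is a cascade of plasma proteases and cell-surface proteins that tags and lyses cells, and 8 of its components and regulators were looked for on mouse whole genome arrays: C2, C3, C4b, Cfb, Serping1, Cd55, C1qbp and Masp1. A gene was included through each array probe whose platform annotation gave exactly 1 gene symbol, equal to that gene. This found 7 probes of 6 genes among 36227 probes and 18069 named genes on the array. Masp1 had 2 probes and C2, Cfb, Serping1, Cd55 and C1qbp had 1 each, while 2 genes, C3 and C4b, had no such probe and are left out.

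The arrays measured total RNA of 3T3-L1 cells, a mouse preadipocyte line turned into adipocytes with an adipogenic mixture and taken 10 days after differentiation. Per the labels, 3 arrays came from adipocytes carrying the Tet-off plasmid alone (control) and 3 from adipocytes expressing uncoupling protein 1 (UCP1), the carrier that lets protons re-enter mitochondria without making ATP. The study asked how forced expression of UCP1 alters adipocyte gene expression. The labels do not give the UCP1 construct, whether the UCP1 cells also carried the Tet-off plasmid, the number of clones, or whether separate cultures stand behind the arrays of a group. The p-values therefore reflect the scatter among these 6 arrays alone, part or all of which may be technical.

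Complement is started by recognition proteins that bind antibodies or sugars (the classical and lectin pathways) or by spontaneous turnover of C3 (the alternative pathway). All routes build convertases, enzymes that cut C3, and host cells restrain them with soluble and membrane-bound inhibitors. Adipocytes are known as a source of complement proteins, above all of factor D (adipsin), the protease that cuts factor B in the alternative pathway.

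Intensities are linear and relative to an array median of 1.04 to 1.05, so a change in total RNA cannot be read from them. The Ucp1 probe read 0.222, 0.232 and 0.278 on the control arrays and 2.34, 2.02 and 1.54 on the UCP1 arrays. The adipocyte markers Adipoq, Fabp4 and Lpl were bright on every array, at 524 to 950, while the lipase gene Lipe read only 0.0918 to 0.222.

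Of the 7 complement probes, 1 passed the test, that of Cd55, which was 2.19-fold lower in UCP1 adipocytes. Passing means an adjusted p under 0.05 in limma, fitted and adjusted over all 36116 tested probes, of which 2.83% passed and 2.03% passed as lower. This background depended on the processing: 732 probes passed as lower and 289 as higher, against 446 and 567 after quantile normalization and 460 and 517 after cyclic loess, and the total of 1021 was 159 without UCP1 3 and 1894 without UCP1 1 and also without UCP1 2. Without control 1, 2 and 3 it was 359, 392 and 617. The median difference of the 7 probes was -0.35 on the log2 scale, against -0.06 over all tested probes, with 5 probes below 0 and 2 above. After quantile normalization these medians were -0.21 and 0.02, and after cyclic loess -0.22 and 0.0087, with 5 of the 7 still below 0 under both. On 4 of the 7 probes every UCP1 array lay below every control array, as it did on 14.0% of all tested probes, and on 1 every UCP1 array lay above, as on 7.88% of all. Groups that did not overlap in either direction were thus found for 5 of the 7 probes and for 21.9% of all tested probes. In limma 5 of the 7 probes had an unadjusted p under 0.05, as 17.1% of all tested probes had.

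**Figure D1:**
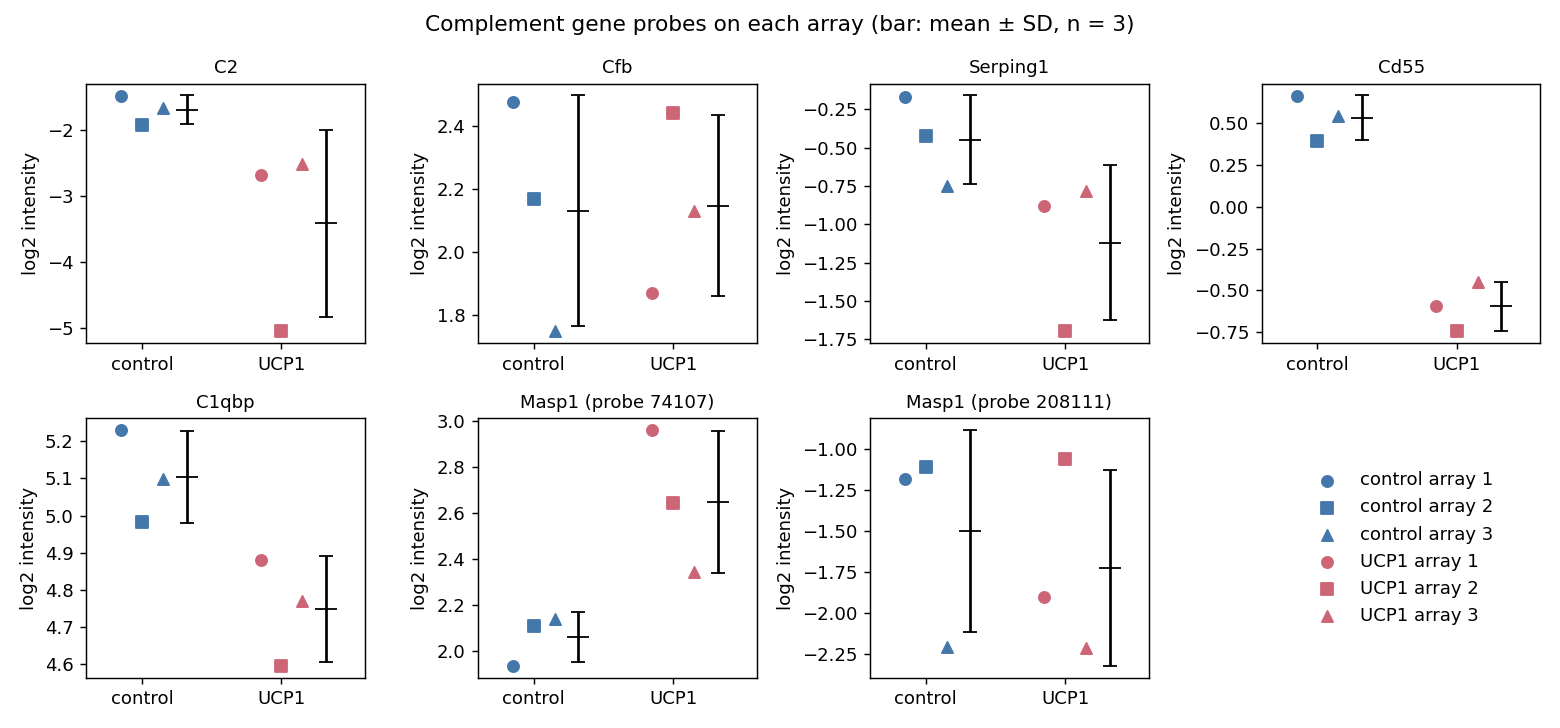
Log2 intensity of each complement probe on the 3 control and 3 UCP1 arrays (each panel has its own vertical axis; marker shapes name the array, bars give mean ± SD, n = 3). The groups lie apart for C2, Serping1, Cd55, C1qbp and Masp1 probe 74107, with the narrowest spread relative to the gap for Cd55, and overlap for Cfb and Masp1 probe 208111.

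Cd55, the decay-accelerating factor, is a membrane protein that takes apart C3 and C5 convertases on the cell that carries it. Its probe read 1.58, 1.31 and 1.45 on the control arrays and 0.661, 0.597 and 0.733 on the UCP1 arrays. The lowest control reading was thus well above the highest UCP1 reading. The mean fell from 1.45 ± 0.134 (SD, n = 3) to 0.664 ± 0.0679 (SD, n = 3), a log2 difference of -1.13 ± 0.182 (SE, limma, adjusted p = 0.00916) with a 95% interval of -1.52 to -0.73. Relative to the other probes of its array, Cd55 stood above 54.2% to 57.5% of them in controls and above 39.7% to 42.6% in UCP1 adipocytes, so it went from just above to below the middle of the array. In RNA from whole cultures, fewer cells of a type and less RNA per cell cannot be told apart. The call was lost in limma without the intensity trend (adjusted p = 0.186), where 0 of all probes passed and 4951 had an unadjusted p under 0.05. Over the 15 alternatives that tested the probe, its adjusted p ran from 0.00383 to 0.186.

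The stretch of 250 bases before the Cd55 start site is shown because Cd55 was the member that passed. It is taken from RefSeq (GRCm38.p6, chr1:130462745-130462994, minus strand), printed 5′ to 3′, with capitals marking matches to a GC box or a TGACG motif, the core of cyclic AMP response elements.
Cd55 upstream: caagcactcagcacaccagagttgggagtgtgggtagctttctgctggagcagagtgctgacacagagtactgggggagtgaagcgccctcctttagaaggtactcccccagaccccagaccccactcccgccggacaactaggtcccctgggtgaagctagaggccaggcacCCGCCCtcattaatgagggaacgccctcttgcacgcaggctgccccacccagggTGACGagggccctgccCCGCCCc
The capitals are 2 GC boxes (GGGCGG on either strand), starting at bases 174 and 244 of the stretch, and 1 TGACG (on either strand), starting at base 228. They do not overlap one another. Stretches of the same length before 32851 start sites held at least 1 GC box in 32.7% of cases and at least 1 TGACG in 17.8%. No match was found in this window to the C/EBP motif TTNNGNAA (held by 36.8% of stretches), the NF-kB motif (7.25%), the E-box CACGTG (6.02%) or TATAAA (12.4%), each searched on both strands. Such matches describe letters only and are not evidence of binding.

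Cd55b, the neighbouring mouse copy of Cd55, had a dim probe that read 0.148 to 0.166 on the control arrays and 0.157 to 0.307 on the UCP1 arrays. Its difference of 0.50 ± 0.535 (SE) did not pass (limma, adjusted p = 0.691). The platform annotation does not tell whether either probe also binds the other copy's RNA.

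Serping1 encodes the C1 inhibitor, a serpin that blocks C1r, C1s and the MASP proteases as well as plasma kallikrein. It read 0.887, 0.746 and 0.596 on the control arrays and 0.544, 0.309 and 0.582 on the UCP1 arrays. The groups did not overlap, but control 3 and UCP1 3 nearly touched and UCP1 2 lay lowest. The difference of -0.67 ± 0.295 (SE) did not pass (limma, adjusted p = 0.271), and it was -0.38 without UCP1 2.

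Among the proteases of the convertases, C2, which is cut to form part of the classical and lectin C3 convertase, read 0.356, 0.263 and 0.314 on the control arrays. On the UCP1 arrays it read 0.155, 0.0303 and 0.175. All of these are dim, above 21.6% to 29.4% of the probes of each control array and above 0.647% to 13.6% on the UCP1 arrays. UCP1 2 was far below the others, and the difference of -1.72 ± 0.738 (SE) did not pass (limma, adjusted p = 0.258). It was -0.90 without UCP1 2 and -0.88 when 0.125 was added to each intensity before log2.

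Cfb, factor B, plays for the alternative pathway the part that C2 plays for the classical one, and the genes lie side by side in the RefSeq gene order. It read 5.57, 4.50 and 3.36 on the control arrays and 3.65, 5.43 and 4.38 on the UCP1 arrays. The groups overlapped throughout, with means of 4.48 ± 1.10 (SD, n = 3) and 4.49 ± 0.894 (SD, n = 3). The difference of 0.02 had a 95% interval of -0.40 to 0.43 (limma, adjusted p = 0.979), which leaves room for a change of up to about that size in either direction. The size of change that would pass with 3 arrays a group was not worked out. The sign turned without control 3 and without UCP1 2.

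Masp1, a protease gene of the lectin pathway whose transcripts encode several proteins, had 2 probes that the platform annotation ties to different database entries. Which of its transcripts each probe binds was not checked here. Probe 74107 read 3.83, 4.31 and 4.41 on the control arrays and 7.78, 6.25 and 5.07 on the UCP1 arrays. Every UCP1 array was above every control, with UCP1 3 closest to them. The difference of 0.59 ± 0.153 (SE), 1.50-fold, did not pass (limma, adjusted p = 0.0652). It passed after quantile normalization (0.66, adjusted p = 0.0391), after cyclic loess (0.66, adjusted p = 0.0368), with robust eBayes (adjusted p = 0.0406) and among the brighter probes alone (adjusted p = 0.0213), and over all 16 alternatives its adjusted p ran from 0.0213 to 0.312. Probe 208111 was dim, at 0.441, 0.464 and 0.216 on the control arrays and 0.267, 0.480 and 0.215 on the UCP1 arrays. Its groups overlapped, and its difference of -0.23 ± 0.435 (SE) did not pass (limma, adjusted p = 0.839). The probes thus differed in sign, although the 95% interval of the dim probe, -1.18 to 0.72, overlapped that of the brighter one, 0.25 to 0.92.

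C1qbp encodes a protein first described as a binder of the C1q globular heads, and most of it resides in the mitochondrial matrix. It read 37.5, 31.6 and 34.3 on the control arrays and 29.5, 24.2 and 27.3 on the UCP1 arrays. The UCP1 arrays were all lower, by a modest margin, and the probe stood above 89.9% to 91.5% of the probes on each of the 6 arrays. The mean was 34.5 ± 2.96 (SD, n = 3) in controls and 27.0 ± 2.65 (SD, n = 3) in UCP1 adipocytes, and the difference of -0.35 ± 0.124 (SE) did not pass (limma, adjusted p = 0.158). It was -0.21 after quantile normalization and -0.20 after cyclic loess.

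**Figure D2:**
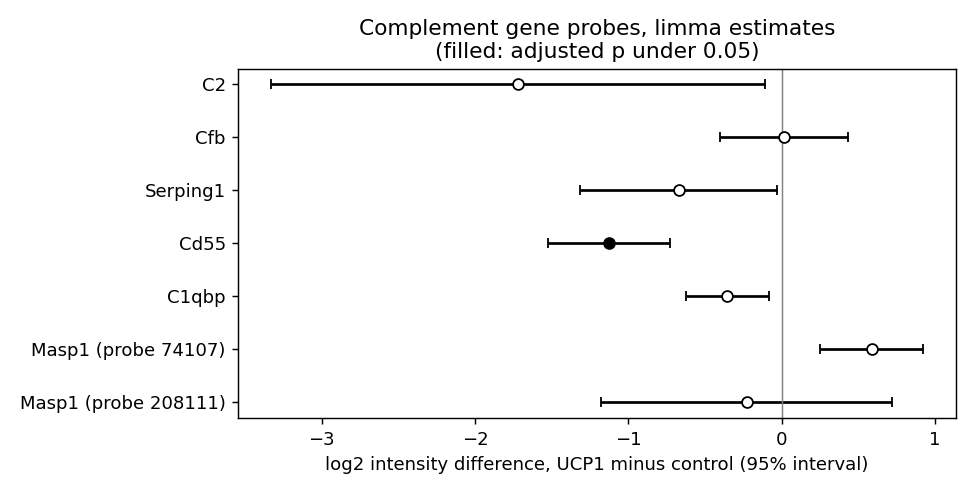
Difference in log2 intensity, UCP1 minus control, for each complement probe, with the 95% interval of limma, not adjusted for the number of probes. The interval of Cd55 runs from -1.52 to -0.73 and its filled point marks the probe that passed after adjustment, while those of C2 and of Masp1 probe 208111 are wide.

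Beyond these genes, 49 further complement genes were listed, of which 38 were tested with 41 probes. Of these probes 0 rose and 1 fell, against 0.80% and 2.03% of all tested probes. Of the 41 probes 24 lay above 0 and 17 below 0, with a median of 0.11, against -0.06 over all tested probes. When 0.125 was added to each intensity before log2 this median was 0.0329. The probe that fell belonged to C5ar1, the receptor of the C5a fragment. It read 2.32, 2.14 and 2.26 on the control arrays and 1.63, 1.38 and 1.35 on the UCP1 arrays, a difference of -0.63 ± 0.144 (SE, limma, adjusted p = 0.0411). The other C5ar1 probes did not follow, at 0.28 and 0.04 with overlapping groups. The call was lost without control 1, 2 or 3 and without UCP1 2 or 3, at adjusted p = 0.054 to 0.196.

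The roles below were assigned after the values were seen. In recognition, initiation and amplification 0 of 13 probes passed in limma and 1 had an unadjusted p under 0.05, as 17.1% of all tested probes had. C1ra, whose protein is the protease that starts the C1 complex, read 34.5 to 47.2 in controls and 45.4 to 52.3 in UCP1 adipocytes (difference 0.28, adjusted p = 0.357). Cfp, properdin, which stabilises the alternative convertase, read 9.57 to 12.6 and 12.1 to 16.4 (difference 0.24, adjusted p = 0.479). The C1q chain genes C1qa, C1qb and C1qc, made mainly by macrophages, were dim throughout, at 0.0559 to 0.241 in controls and 0.0468 to 0.337 in UCP1 adipocytes.

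In the terminal pathway, which forms the membrane attack complex, 0 of 5 probes passed in limma and 0 had an unadjusted p under 0.05. Among 12 probes of other regulators, 0 passed in limma and 1 had an unadjusted p under 0.05, that of Cd59a. Over all tested probes 17.1% had an unadjusted p under 0.05. Cd59a, a membrane-anchored inhibitor of the attack complex, read 18.4, 17.6 and 16.8 on the control arrays and 15.1, 10.8 and 13.0 on the UCP1 arrays. Its groups did not overlap, and the difference of -0.46 ± 0.131 (SE) did not pass (limma, adjusted p = 0.0875), although it passed among the brighter probes (adjusted p = 0.0427), with array weights (0.0428) and without UCP1 1 (0.0212). Cr1l, which encodes Crry, the widely expressed rodent inhibitor of C3 convertases, read 16.5 to 19.3 in controls and 14.3 to 18.5 in UCP1 adipocytes. Its groups overlapped, at a difference of -0.20 ± 0.128 (SE, limma, adjusted p = 0.485). Among the membrane regulators of convertases or the attack complex, then, Cd55 passed, and Cd59a, Cd59b, Cr1l, Cd46 and Cd55b did not, of which Cd59b, Cd46 and Cd55b were dim on every array. Nor did Susd4 (0.14) or Csmd1 (-0.16 and -0.04) pass, also counted as regulators here, or Vsig4 (-0.48), counted among the receptors.

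**Figure D3:**
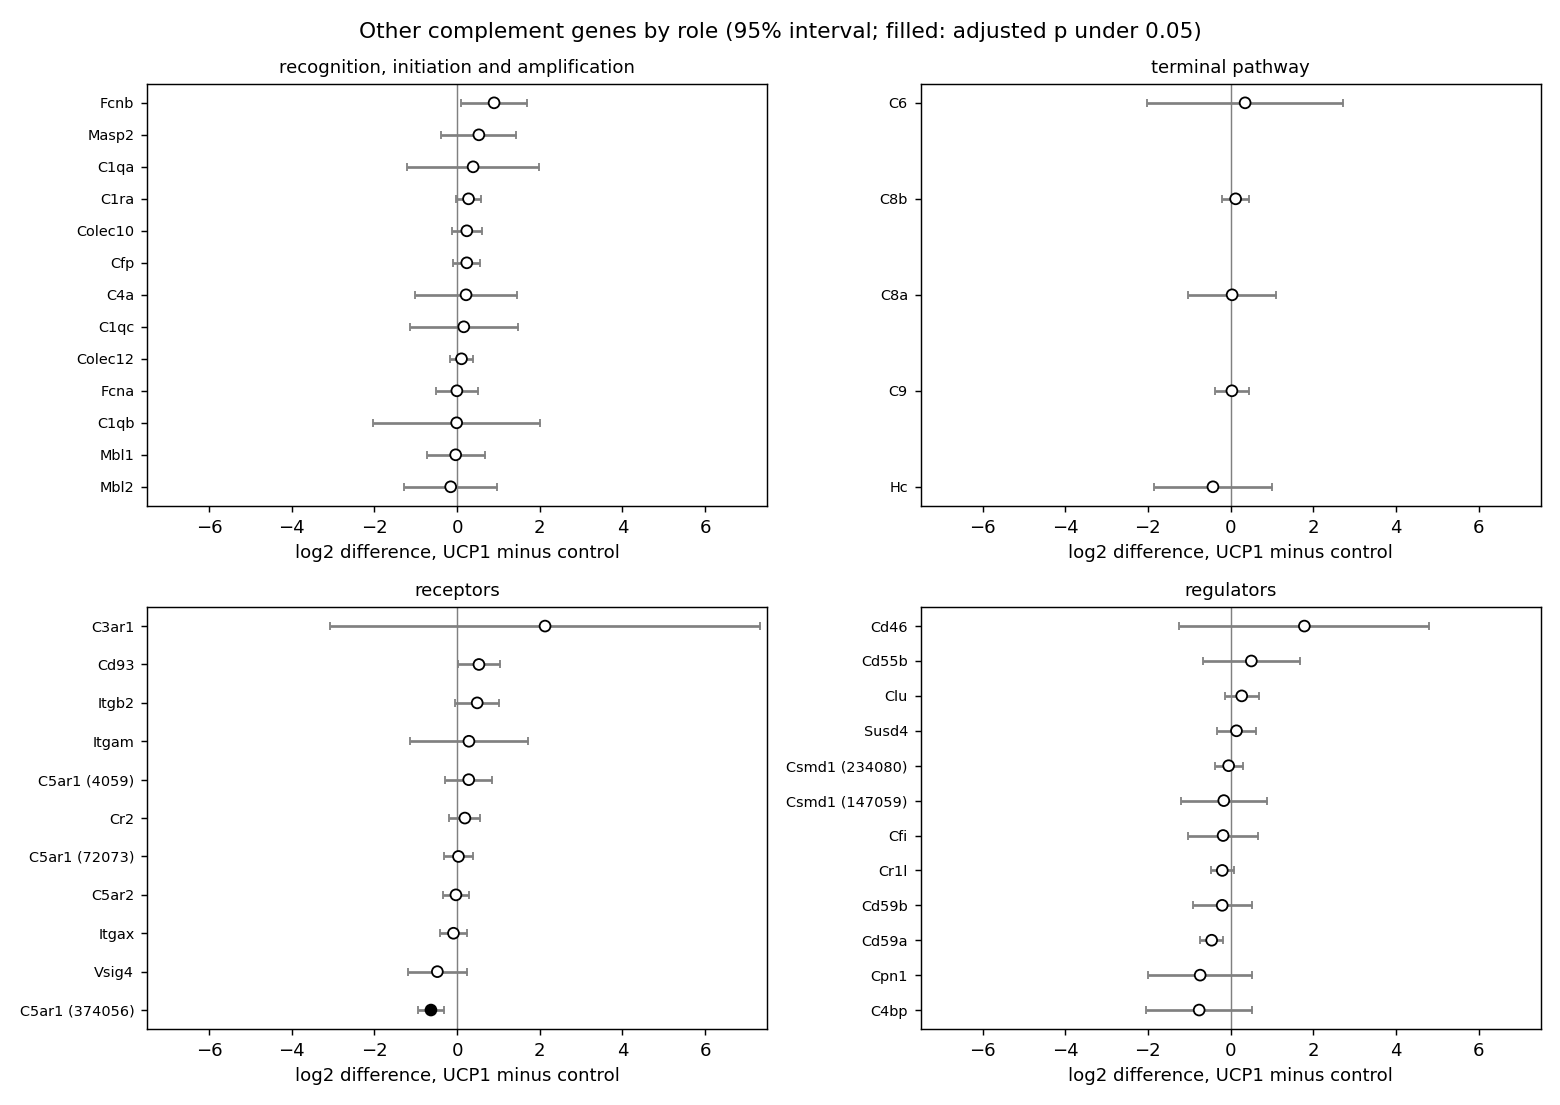
Difference in log2 intensity, UCP1 minus control, for the 41 probes of 38 other complement genes, in 4 panels by role, with 95% intervals not adjusted for the number of probes (probe numbers are given where a gene has several). The single filled point is the C5ar1 probe at -0.63, and the widest interval is that of C3ar1, which read at or below 0 on a control array.

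Inflammatory and interferon regulators were listed as well: 0 of 30 probes rose and 1 fell, against 0.80% and 2.03% of all tested probes. Whether each of them acts on complement genes in these cells was not tested. Of the 30 probes 23 lay below 0, with a median of -0.20, and 10 had an unadjusted p under 0.05, as 17.1% of all tested probes had. The one that fell was the transcription factor gene Cebpd, which averaged 36.6 ± 5.82 (SD, n = 3) in controls and 18.2 ± 2.96 (SD, n = 3) in UCP1 adipocytes, 2.02-fold lower (limma, adjusted p = 0.00685). It did not pass without UCP1 3 (adjusted p = 0.0651). Cebpb, its relative, averaged 13.6 ± 1.66 (SD, n = 3) and 9.07 ± 1.72 (SD, n = 3), without passing (adjusted p = 0.0539). Cebpa of the same family was at -0.69 with overlapping groups and did not pass (limma, adjusted p = 0.167). This list's median was -0.10 after quantile normalization and -0.12 after cyclic loess.

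Genes around C2 and Cfb in the class III part of the mouse major histocompatibility region gave 0 calls among 19 probes in limma, 9 of them with an unadjusted p under 0.05, as 17.1% of all tested probes had. Their median was -0.30, with 15 probes below 0, and -0.18 after quantile normalization. On 9 of the 19 every UCP1 array lay below every control, as on 14.0% of all tested probes. Vars, a valyl-tRNA synthetase gene, and Lsm2, an RNA-binding protein gene, had the smallest p, at -0.62 and -0.41 (adjusted p = 0.106 and 0.113). Vars passed without UCP1 2 (-0.88, adjusted p = 0.00294) and among the brighter probes (adjusted p = 0.0364). Nelfe, next to Cfb, was at -0.32, and Zbtb12, next to C2, at -0.34.

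Among 11 probes of contact-system proteases, plasminogen activators and other serpins, 1 rose and 0 fell, against 0.80% and 2.03% of all tested probes. The probe that rose belonged to Klkb1, plasma kallikrein, a target of the C1 inhibitor. It read 0.413, 0.359 and 0.380 on the control arrays and 1.25, 0.959 and 1.14 on the UCP1 arrays (2.89-fold higher, limma, adjusted p = 0.00516). It did not pass without UCP1 3 (adjusted p = 0.0543). Its control readings were dim, above 29.8% to 33.0% of the probes of their arrays. The other Klkb1 probe was also higher on every UCP1 array than on every control, but did not pass (0.69 ± 0.280, SE, limma, adjusted p = 0.225).

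Markers of other cells moved with the groups in part. Of 9 preadipocyte or fibroblast probes 3 rose, 1 each of Dlk1 (1.08), Thy1 (0.80) and Pdgfra (0.67), where 0.80% of all tested probes rose. The other Dlk1 probe (0.34) and the other Pdgfra probe (0.16) did not pass, nor did Pdgfrb (0.52), Cd34 (-0.29), Col1a1 (-0.21) or Col3a1 (-0.06). The summed intensity of the list was 678 to 910 in controls and 707 to 920 in UCP1 adipocytes. Most of this sum was Col3a1, at 532 to 734 in controls and 511 to 669 in UCP1 adipocytes, so it says little of the probes that rose. Thy1 did not pass without control 2 or 3 or UCP1 3 (adjusted p = 0.106, 0.0668 and 0.126), nor Pdgfra without control 1, 2 or 3 or UCP1 3 (adjusted p = 0.123, 0.142, 0.161 and 0.109). Of 9 macrophage or leukocyte probes 1 rose, that of the lysozyme gene Lyz2 (1.48), and the list summed to 12.1 to 17.7 in controls and 15.1 to 15.9 in UCP1 adipocytes. The defining leukocyte genes Ptprc and Adgre1 were dim on every array, at 0.0554 to 0.179 and 0.0299 to 0.334. Cd14 of the same list was brighter, at a mean log2 intensity of 3.66 in controls, and made up most of the sum there. Its difference of -0.22 did not pass (limma, adjusted p = 0.482). Of the adipocyte, endothelial and hepatocyte probes, 6 in each list, 0 passed in limma, with 0, 0 and 1 at an unadjusted p under 0.05. Over all tested probes 2.83% passed and 17.1% had an unadjusted p under 0.05. The smallest p in these lists were those of Pparg (-0.21) and Cidec (-0.14), of Tie1 (0.69) and Vwf (0.47), and of Ahsg (0.38) and Fgb (-0.63). Counted from the dimmest probe, Adipoq and Lpl ranked at 99.99% to 100% of the probes on every array, and Lipe was dim. Whether readings so near the top can show a rise was not tested, so the lack of calls says little there. The adipocyte list summed to 2846 to 3255 in controls and 2276 to 3212 in UCP1 adipocytes. The lowest sum was on UCP1 3, where the highest value of any probe was 683. The median of the adipocyte list turned from -0.09 to 0.16 after quantile normalization. The part of these shifts in the fall of Cd55 was not tested.

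**Figure D4:**
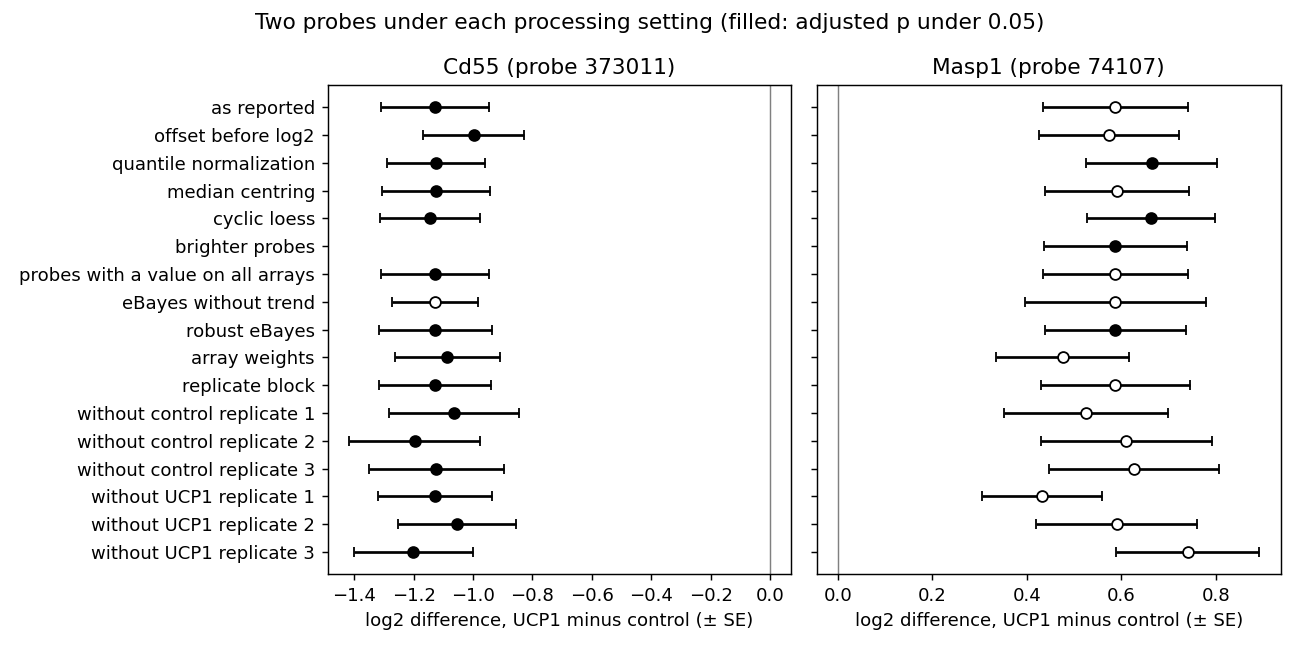
Difference in log2 intensity, UCP1 minus control (± SE), of the Cd55 probe and of Masp1 probe 74107 as reported and under each alternative setting, with filled points where the adjusted p was under 0.05. Cd55 was at -1.20 to -0.998 throughout, with an open point in limma without the trend and no point among the brighter probes, where it was not tested. Masp1 was at 0.43 to 0.74.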

How the data were processed

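Per the labels' protocols, biotin-labelled total RNA was hybridised to CodeLink mouse whole genome arrays. The deposited intensities are linear and, judged from their values, were brought by the authors to nearly the same median on every array. Their upper ends were less alike, with a 99th percentile of 255 to 279 on the control arrays and 185 to 225 on the UCP1 arrays. The highest value was 683 on UCP1 3 and 921 to 950 on the other arrays. How the arrays were scanned, background-corrected and scaled was not given in the sources used here. Cells of -9999 were treated as missing, and values at or below 0 (80 to 159 per array) took their array's smallest positive value before log2. No mark of detection was used, so dim readings have no stated background. A probe was tested with at least 2 values per group, which left 36116. The test was limma 3.58.1 under R 4.3.3 (lmFit, eBayes with intensity trend, two-sided), with Benjamini-Hochberg adjustment over all tested probes. An exact permutation test of 3 against 3 arrays cannot give a p below 0.1 and was not used. The functions were also tested on simulated data with known changes.

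Groups came from the source field of the labels, and replicate numbers, given in accession order, only name arrays. The titles of the UCP1 arrays end in 1, 2 and 3, and whether these digits number replicates or belong to the protein name is not certain. The replicate block rests on that numbering. Gene names came from the platform annotation, and the 681 probes to which it gives more than 1 symbol were left unnamed. Sequence was taken from RefSeq tables, which matched 2 of the 6 genes. Every member probe was named, and from each other list the called probes with the largest change (up to 4 a direction) or, where none was called, the 2 with the smallest p. Other genes in the text (Cd55b, Cd59a, Cd59b, Cd46, Cr1l, Susd4, Csmd1, Vsig4, C1ra, Cfp, the C1q genes, C3ar1, Cebpa, Cebpb, Cd34, Col1a1, Col3a1, Pdgfrb, Nelfe, Zbtb12, Adipoq, Fabp4, Lpl, Lipe, Ptprc, Adgre1, Cd14) were chosen after their values were seen. The members and lists were chosen with earlier results of these data known. Alternatives were an offset, 3 other scalings, 2 probe filters, 3 variance or weight settings, the replicate number as a block and each array left out in turn.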

Additional observations from a re-analysis of the deposited data

How the results depend on the processing

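The count of complement probes that passed was 1 as reported, 2 after quantile normalization, 2 after cyclic loess and 2 with robust eBayes, where Masp1 probe 74107 joined Cd55, and 0 in limma without the trend, where 3 had an unadjusted p under 0.05. It was 1 without each array in turn. Among the brighter probes it was also 1, but there it was Masp1, since Cd55, Serping1, C2 and the dim Masp1 probe were not tested. For the other complement genes the count of 1 became 2 among the brighter probes, 2 with array weights, 0 without the trend (2 at an unadjusted p under 0.05) and 0 with the replicate block (4 at an unadjusted p under 0.05), and ran from 0 to 2 without each array in turn. With the replicate block Cd55 still passed (adjusted p = 0.0197), and C5ar1 (adjusted p = 0.0639) and Thy1 (adjusted p = 0.0575) did not. Deviations of same-numbered arrays from their group means correlated at -0.24, -0.01 and 0.10. Those of differently numbered arrays ran from -0.36 (control 3 with UCP1 2) to 0.35 (control 1 with UCP1 2). Deviations within a group of 3 arrays sum to 0, so these correlations are tied to one another. They cannot decide whether the numbers pair the arrays, and a pairing in another order was not tested. Directions turned for Cfb (-0.18 to 0.19) and Masp1 probe 208111 (-0.58 to 0.0174) without single arrays. They also turned for Pparg (0.0584 after quantile normalization, 0.0348 after cyclic loess) and Cidec (0.29 and 0.14, and -0.31 to 0.0106 without single arrays). Of the 7 complement probes under their alternatives, 100 values kept direction and side of the threshold, 4 newly passed, 1 no longer passed and 3 turned sign. The number of arrays, and for C2 and Masp1 probe 208111 the dim signal, limits the precision.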
